A study of Mus musculus with 18 samples.

Results

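The Fc gamma receptor genes are the family through which macrophages bind IgG antibodies, and they were followed here as 6 named genes: Fcgr1, Fcgr2b, Fcgr3, Fcgr4, Fcer1g and Fcgrt. They were taken by symbol as members of the family, and each matched 1 of the 48794 gene rows of the table. The cells were macrophages grown from the marrow of male C57BL/6 mice for 7 days in M-CSF (50 ng/ml), the growth factor of the lineage. They were then kept for 24 h in M-CSF (10 ng/ml) with or without further cytokines, so every group carried M-CSF. Control cells received nothing else, IL4_IL13 cells received IL-4 and IL-13 (10 ng/ml each), and IL4_IL13_TNFa cells received IL-4, IL-13 and TNFa (10 ng/ml each). Each group held 6 poly(A) RNA libraries, numbered 1 to 6. No group received TNFa alone, and no label gives the age of the mice or says whether libraries of a group came from separate mice or cultures. The p-values therefore reflect only how much the 6 libraries of a group differed, and that spread may be technical.

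The activating receptors Fcgr1, Fcgr3 and Fcgr4 bind IgG through their own chain and signal through a shared subunit, the Fc receptor gamma chain encoded by Fcer1g, whose tyrosine motif (ITAM) recruits the kinase Syk and starts engulfment of antibody-coated particles. Fcgr2b carries an inhibitory tyrosine motif (ITIM) in its own tail, recruits the lipid phosphatase Inpp5d (SHIP1), and dampens the activating receptors. Fcgrt encodes the neonatal receptor FcRn, which pairs with B2m, binds IgG in acidic endosomes and returns it to the cell surface. The balance of activating and inhibitory receptors is known to set how strongly macrophages respond to immune complexes.

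Libraries held 14793404 to 20056125 counts. Levels below are in CPM (counts scaled to a common library size) on TMM-scaled library sizes, and levels of different genes are compared only per kilobase of exon. The macrophage genes Csf1r, Adgre1 and Cd68 were present in each library, with means of 5258, 2307 and 760 CPM in Control. Control replicate 1 stood apart: its 8 summed macrophage markers were at 13830 CPM against 20740 to 24730 in the other controls, and its 10 summed stromal and endothelial markers at 19.4 CPM against 96.9 to 556. Replicate 1 was also the lowest library of both other groups for the stromal and endothelial markers (52.3 and 52.9 CPM) and of IL4_IL13 for the macrophage markers (7939 CPM). The 8 markers summed to 7939 to 9682 CPM in IL4_IL13 and 8226 to 9026 CPM in IL4_IL13_TNFa, both below Control, and their part in the results was not tested. Lyz2, the lysozyme gene, made up most of that difference (12000 CPM in Control, 2848 in IL4_IL13 and 3190 in IL4_IL13_TNFa). The means of Csf1r, Adgre1, Itgam, Mertk, Cd14 and Aif1 were also below Control in both cytokine groups. In IL4_IL13 and IL4_IL13_TNFa, Csf1r was at 3427 and 3812 CPM and Adgre1 at 1163 and 573.9 CPM. Cd14 was at 117.7 and 65.46 CPM there, against 476.8 in Control. Only Cd68, at 1080 and 850.5 CPM in the 2 cytokine groups, was above its Control mean. Results that rest on Control replicate 1 are given with and without it. In bulk RNA, fewer cells of a type and less RNA per cell cannot be told apart.

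Of the 6 genes, 4 lie on chromosome 1 within 276 kb of GRCm38: Fcgr2b (170958617 to 170976547, minus strand), Fcgr4 (171018920 to 171029761, plus strand), Fcgr3 (171051174 to 171064935, minus strand) and Fcer1g (171229572 to 171234365, minus strand). Fcgr1 lies on chromosome 3 (96282909 to 96293969, minus strand) and Fcgrt on chromosome 7 (45092990 to 45103851, minus strand). Fcgr2b and Fcgr3 are close relatives. Their coding sequences were identical at 83.9% of 784 aligned bases, against 58.6% to 63.5% for the other 5 pairs of the 4 IgG-binding chains. The run below is the longest stretch that the coding sequences of Fcgr2b (Fcgr2b-201, from base 278) and Fcgr3 (Fcgr3-201, from base 263) share without a mismatch. It holds 129 bases from the GENCODE M21 transcripts and is shown because a read wholly within it matches both genes.
Fcgr2b and Fcgr3: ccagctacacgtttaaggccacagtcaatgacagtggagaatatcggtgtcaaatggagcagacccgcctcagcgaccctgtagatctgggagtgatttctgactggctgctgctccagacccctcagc
Of all 50-base stretches in the annotated transcripts, 2.92% of those of Fcgr2b and 9.58% of those of Fcgr3 occurred in the other gene, and none was shared by any other pair of the 4. Counts of Fcgr2b and Fcgr3 are uncertain for such reads. These shares describe sequence only, and the part of the counts that this touches was not measured.

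Per kilobase, the signal subunit gene Fcer1g had the highest level of the 6 in each group and Fcgr3 the second highest. In Control, Fcer1g was at 484 ± 14.3 CPM per kb (SD, n = 6) and Fcgr3 at 196 ± 44.1. Fcgrt (52.5 ± 19.3 CPM per kb) and Fcgr1 (50.4 ± 8.81 CPM per kb) came next and overlapped between libraries, as did Fcgr4 (8.93 ± 2.54 CPM per kb) and Fcgr2b (6.53 ± 2.31 CPM per kb) at the bottom, where the order of the last pair turned when the longest transcript gave the length. In IL4_IL13 the inhibitory receptor Fcgr2b came next after Fcgr3, at 41.5 ± 4.89 CPM per kb, overlapping with Fcgrt at 40.9 ± 11.5. Fcgr1 (8.44 ± 0.913 CPM per kb) and Fcgr4 (3.29 ± 0.596 CPM per kb) followed without overlap. With TNFa added, the order was Fcer1g (361 ± 17.9 CPM per kb), Fcgr3 (40.9 ± 7.57), Fcgr2b (27.2 ± 0.809), Fcgrt (5.62 ± 0.534), Fcgr1 (0.386 ± 0.193) and Fcgr4 (0.281 ± 0.102), and only the last 2 overlapped between libraries.

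**Figure D1:**
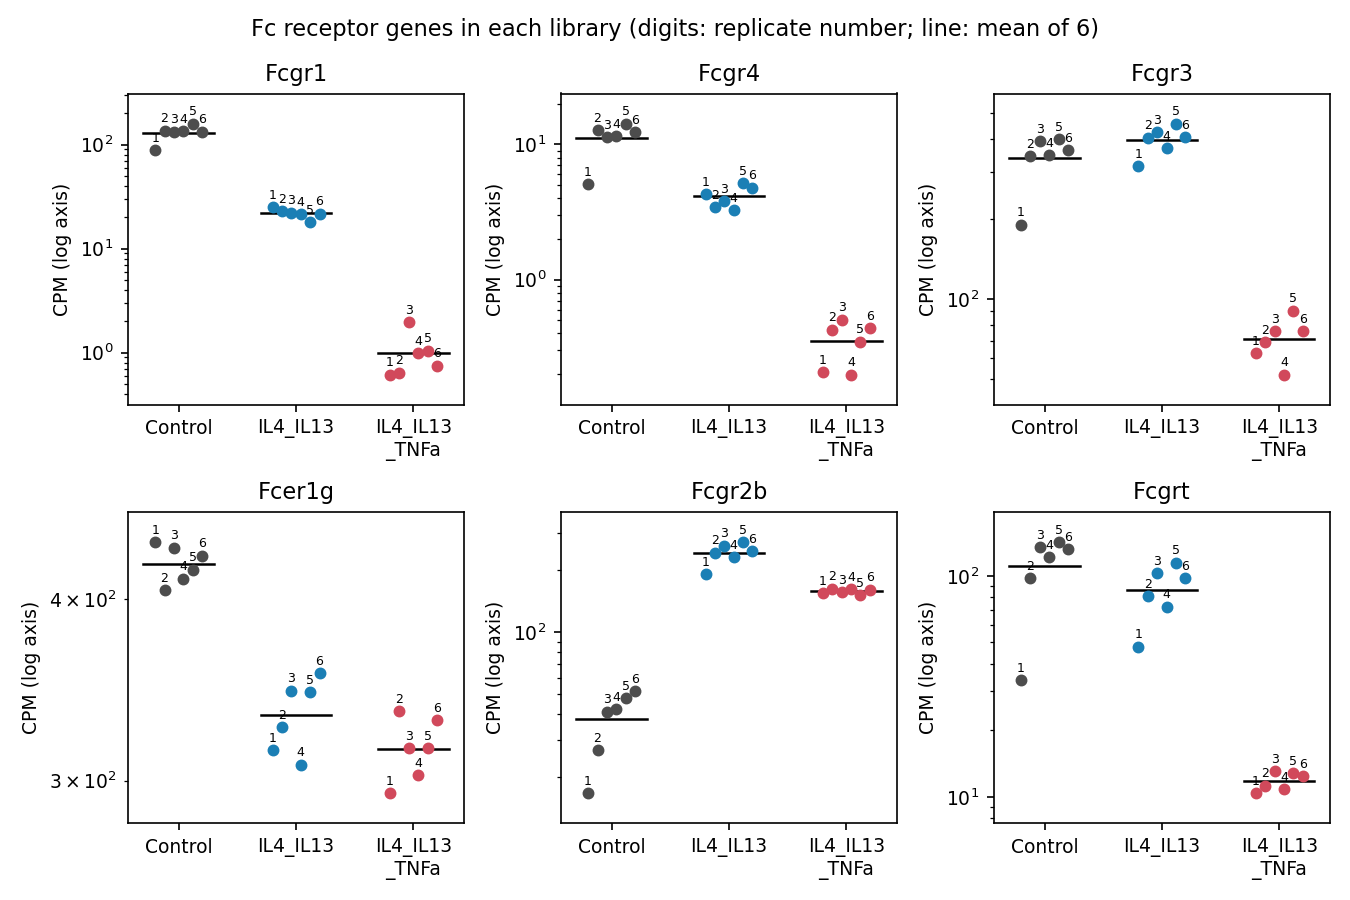
CPM of each gene in each of the 18 libraries on log axes, by group, with replicate numbers beside the points and a line at the mean of 6. Fcgr1 and Fcgr4 step down from Control through IL4_IL13 to IL4_IL13_TNFa, Fcgr2b is lowest in Control, and Control replicate 1 is the lowest control for 5 of the genes and the highest for Fcer1g.

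Between IL4_IL13 and Control, the comparison that asks what the 2 type 2 cytokines changed, 1 of the 6 genes rose (Fcgr2b), 3 fell (Fcgr1, Fcgr4 and Fcer1g) and 2 did not pass the test (Fcgr3 and Fcgrt). Over all 13177 genes tested, 29.3% rose and 29.7% fell. These are 3865 and 3909 genes, and without Control replicate 1 the counts were 4741 and 4340. With the replicate number as a block, Fcgr3 also passed as higher. When TNFa was added to IL-4 and IL-13, 5 of the 6 were called lower, none higher, and Fcer1g did not pass. Of those 5, Fcgr4 and Fcgr1 reached the level asked of tested genes in 0 and 4 of the 6 IL4_IL13_TNFa libraries, so they were tested through the other 2 groups and their count is a description. The background there was 29.3% of genes lower and 30.3% higher, and scaling by library totals shifted it: the median gene moved by -0.20 on the log2 scale and 27.5% of called genes were higher, against 50.9% with TMM. Between IL4_IL13_TNFa and Control, Fcgr2b rose and the other 5 fell, with 36.4% of all genes higher and 37.3% lower. Fcgr4 and Fcgr1 carry the same limit there. The last comparison shares its groups with the first 2, so its values are set beside them only as measurements. Calls rest on the quasi-likelihood test of edgeR at a p of 0.05 after Benjamini-Hochberg adjustment across the 13177 genes. The ± that follows a log2 fold change approximates its standard error and was obtained by dividing its size by the root of F.

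**Figure D2:**
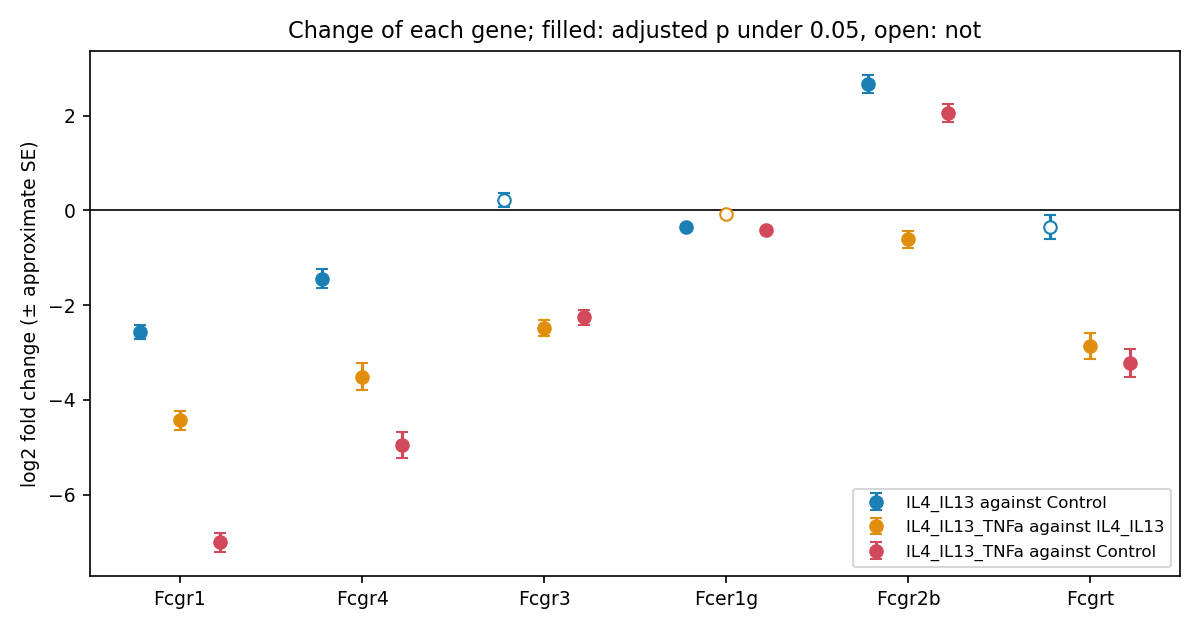
Log2 fold change of each gene (vertical axis) in the 3 comparisons, with approximate standard errors; filled points passed an adjusted p of 0.05 and open points did not. Fcgr1 spans the widest range, down to -7.00, and Fcgr2b is the gene above zero in both comparisons with Control.

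Fcgr1 encodes the high-affinity IgG receptor CD64. Its level in Control ranged from 88.6 CPM through a median of 133 to 159 CPM. In IL4_IL13 it ranged from 17.8 through 21.8 to 25.1 CPM, and in IL4_IL13_TNFa from 0.616 through 0.871 to 1.95 CPM, which is 9 to 31 counts per library. The 3 groups did not overlap, and the lowest control was replicate 1 while the others lay between 132.5 and 159 CPM. Fcgr1 fell 5.96-fold with IL-4 and IL-13 (log2 fold change -2.58 ± 0.15, edgeR adjusted p = 4.06e-11). Without Control replicate 1 that log2 fold change was -2.66. Only 4 of the 6 IL4_IL13_TNFa libraries reached the level asked of tested genes, so the gene entered the test through the other 2 groups. The log2 fold change fitted for added TNFa, -4.43 ± 0.20 (21.5-fold lower), is therefore given as a description. So is that for all 3 cytokines against Control, -7.00 ± 0.20. Among tested genes, the groups did not overlap and were lower in 14.2% for IL-4 and IL-13, in 21.6% for added TNFa and in 25.1% for IL4_IL13_TNFa against Control.

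Fcgr4 encodes an activating receptor of intermediate affinity. Its level in Control ranged from 5.07 through 11.9 to 14.3 CPM, in IL4_IL13 from 3.28 through 4.05 to 5.15 CPM, and in IL4_IL13_TNFa from 0.198 through 0.387 to 0.504 CPM. The lowest control, replicate 1, lay within the IL4_IL13 range, while the other controls started at 11.4 CPM. The IL4_IL13_TNFa libraries held only 3 to 8 counts of the gene each, 32 in all, and none reached the level of 0.595 CPM asked of tested genes, so the gene entered the test only through the groups where it was higher. Fcgr4 fell 2.71-fold with IL-4 and IL-13 (log2 fold change -1.44 ± 0.20, edgeR adjusted p = 6.14e-06). Without Control replicate 1 that log2 fold change was -1.59. The log2 fold change fitted for added TNFa, -3.51 ± 0.29, is given as a description because of how the gene entered the test. It rests on those 3 to 8 counts per library.

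Fcgr3 encodes the low-affinity activating receptor CD16, the most abundant IgG-binding chain per kilobase in each group. It ranged from 191 through 357 to 400.0 CPM in Control and from 317 through 406 to 458 CPM in IL4_IL13, which overlapped. The log2 fold change between them was 0.22 ± 0.15 and did not pass (edgeR adjusted p = 0.215). With the replicate number as a block the log2 fold change was 0.24 and passed (edgeR adjusted p = 0.0391), and without Control replicate 1 it was 0.10. In IL4_IL13_TNFa the level was 52.1 through 72.4 to 90.7 CPM, below each library of the other groups. With added TNFa, Fcgr3 fell 5.59-fold (log2 fold change -2.48 ± 0.16, edgeR adjusted p = 2.13e-10), and it was 4.79-fold below Control.

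The upstream sequences of the 3 activating receptor genes, whose products share the gamma chain, are shown to set them side by side, as the 250 bases before the RefSeq start on GRCm38.p6, 5′ to 3′ on the gene's strand. Capitals mark matches, on either strand, to 5 motifs: TTCNNNGAA (STAT factors), TTC and GAA set 4 bases apart (STAT6), GAGGAA (the core bound by the macrophage factor PU.1), a pair of GAAA set 2 bases apart (interferon response) and the kB motif. They cover chr3:96293970-96294219 (minus strand) for Fcgr1, chr1:171018676-171018925 (plus strand) for Fcgr4 and chr1:171059404-171059653 (minus strand) for Fcgr3. RefSeq gives Fcgr3 2 starts, of which the first listed was used, and it lies inside the GENCODE gene body.
Fcgr1: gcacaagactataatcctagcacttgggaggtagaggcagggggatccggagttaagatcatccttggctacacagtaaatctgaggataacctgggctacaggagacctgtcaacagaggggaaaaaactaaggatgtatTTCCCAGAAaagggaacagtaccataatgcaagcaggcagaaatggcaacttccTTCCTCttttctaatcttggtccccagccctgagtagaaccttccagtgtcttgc
Fcgr4: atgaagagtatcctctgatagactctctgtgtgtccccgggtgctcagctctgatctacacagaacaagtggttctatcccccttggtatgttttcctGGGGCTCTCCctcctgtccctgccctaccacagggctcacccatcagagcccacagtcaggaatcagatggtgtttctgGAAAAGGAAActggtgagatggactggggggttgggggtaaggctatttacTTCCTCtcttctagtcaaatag
Fcgr3: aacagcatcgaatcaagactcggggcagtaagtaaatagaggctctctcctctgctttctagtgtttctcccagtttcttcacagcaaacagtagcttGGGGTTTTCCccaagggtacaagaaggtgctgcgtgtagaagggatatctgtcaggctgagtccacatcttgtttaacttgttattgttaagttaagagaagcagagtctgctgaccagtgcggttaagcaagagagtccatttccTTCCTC
Each of the 3 held the PU.1 core on its minus strand, as TTCCTC, from 55 bases before the start in Fcgr1, 22 in Fcgr4 and 6 in Fcgr3. A GAGGAA match was present in 23.3% of all 32851 promoter windows of the same length. Fcgr1 also held a TTCNNNGAA match, TTCCCAGAA, from 109 bases before its start (7.02% of windows held one). Fcgr4 held GAAAAGGAAA, an interferon response match, from 73 bases before its start (2.98% of windows). Fcgr4 and Fcgr3 each held 1 kB match, from 152 bases before the start in both genes (7.25% of windows). No window of the 6 genes held the STAT6 motif, which 5.85% of windows did, and the windows of Fcgr2b, Fcer1g and Fcgrt held none of the 5. The Fcgr2b window lies inside the GENCODE gene body, and 203 of its 250 bases are annotated as exon of Fcgr2b or Gm38204. Sequence before the GENCODE start of Fcgr2b was therefore not searched. These matches describe the letters and are not evidence of binding.

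Fcer1g encodes the gamma chain that the activating receptors need for surface display and signalling. Its level ranged from 406 through 424 to 438 CPM in Control, from 308 through 336 to 356 CPM in IL4_IL13 and from 294 through 316 to 335 CPM in IL4_IL13_TNFa. Both cytokine groups lay below Control without overlap, and they overlapped each other. It fell 1.27-fold with IL-4 and IL-13 (log2 fold change -0.35 ± 0.04, edgeR adjusted p = 2.76e-06). The change with added TNFa was -0.08 ± 0.04 and did not pass (edgeR adjusted p = 0.154), though it did when libraries were scaled by their totals (-0.28, edgeR adjusted p = 2.49e-05).

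Fcgr2b, the inhibitory receptor, was higher in both cytokine groups than in Control. Its level in Control ranged from 16.7 through 41.9 to 51.6 CPM, in IL4_IL13 from 191 through 243 to 272 CPM, and in IL4_IL13_TNFa from 150 through 158 to 162 CPM. The 3 groups did not overlap, and replicates 1 and 2 were the lowest controls, at 16.7 and 26.8 CPM. Fcgr2b rose 6.36-fold with IL-4 and IL-13 (log2 fold change 2.67 ± 0.19, edgeR adjusted p = 1.88e-09). Without Control replicate 1 that log2 fold change was 2.52. Among tested genes, 12.5% were higher without overlap in that comparison, and 26.1% in IL4_IL13_TNFa against Control. With added TNFa it fell 1.53-fold (-0.61 ± 0.18, edgeR adjusted p = 0.00742), and it remained 4.17-fold above Control (2.06 ± 0.19, edgeR adjusted p = 1.66e-08).

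Fcgrt, the gene of the recycling receptor FcRn, ranged from 33.7 through 127 to 142 CPM in Control and from 47.8 through 89.3 to 115 CPM in IL4_IL13. The lowest library of both groups was replicate 1. The 2 groups overlapped, and the log2 fold change of -0.36 ± 0.25 did not pass (edgeR adjusted p = 0.231). Without Control replicate 1 it was -0.55 and passed (edgeR adjusted p = 0.00705), and without the 3 libraries numbered 1 it was -0.42 (edgeR adjusted p = 0.00447). With added TNFa the gene fell 7.28-fold, to between 10.4 and 13.1 CPM (-2.86 ± 0.28, edgeR adjusted p = 7.22e-08). Its partner B2m, also the light chain of MHC class I, moved the other way, from 1140 ± 101.7 CPM in IL4_IL13 to 2499 ± 188 CPM with TNFa (log2 fold change 1.13 ± 0.09, edgeR adjusted p = 1.48e-09).

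The make-up of the 4 IgG-binding chains differed between the groups. Per kilobase, Fcgr2b supplied 2.44% ± 0.542 of their summed level in Control (SD, n = 6), 14.7% ± 0.265 in IL4_IL13 and 39.9% ± 4.95 in IL4_IL13_TNFa, and the groups did not overlap. Fcgr1 supplied 19.5% ± 1.77, 3.06% ± 0.679 and 0.559% ± 0.264 in the same order, again without overlap. Fcgr3 supplied 74.7% ± 1.39, 81.1% ± 0.705 and 59.1% ± 4.88, and Fcgr4 3.36% ± 0.418 or less in each group. The summed level was 262 ± 56.8 CPM per kb in Control (284 ± 18.7 without Control replicate 1), 282 ± 32.3 in IL4_IL13 and 68.8 ± 7.25 in IL4_IL13_TNFa. Between Control and IL4_IL13 the mixture therefore differed at sums that overlapped, whereas with TNFa the sum was below each library of the other groups. These values combine the members and carry no test.

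**Figure D3:**
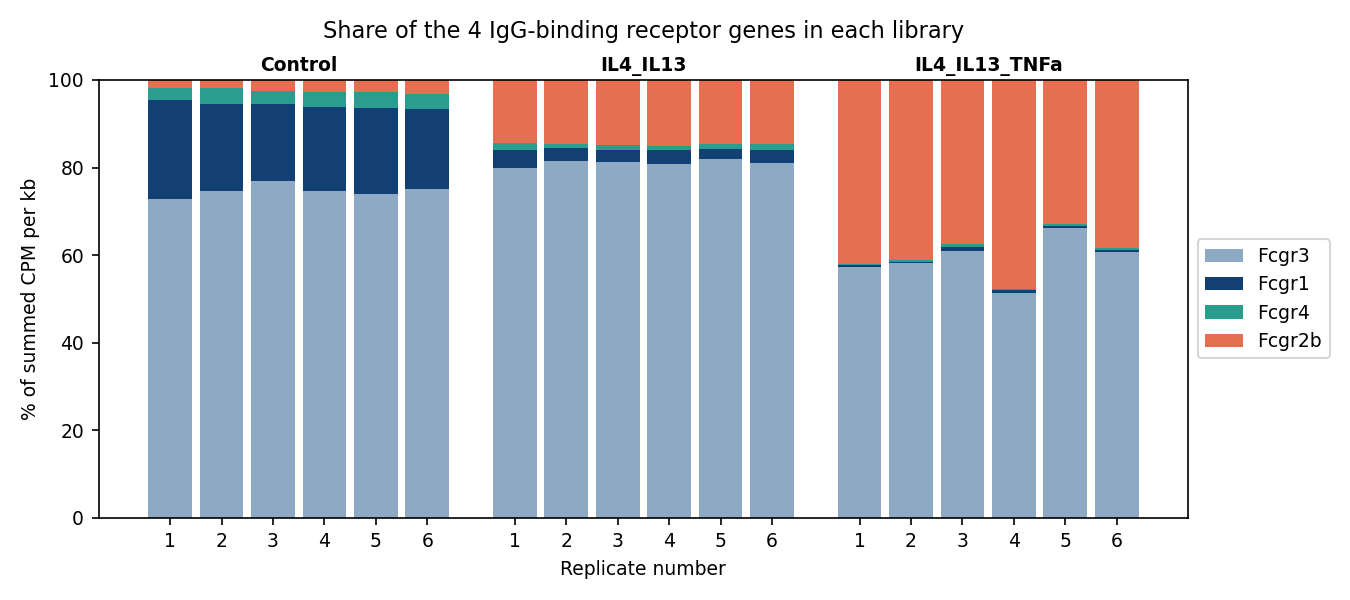
Share of Fcgr3, Fcgr1, Fcgr4 and Fcgr2b in their summed CPM per kb (vertical axis, percent) in each of the 18 libraries, one bar per library by replicate number. The Fcgr2b part widens from 1.74% to 3.18% in Control to 14.4% to 15.1% in IL4_IL13 and 32.9% to 47.6% in IL4_IL13_TNFa.

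Set against the inhibitory receptor, each activating chain declined in the 2 cytokine groups. The ratio of Fcgr1 to Fcgr2b per kilobase was 8.43 ± 2.54 in Control (7.74 ± 2.11 without Control replicate 1). It was 0.208 ± 0.0482 in IL4_IL13 and 0.0142 ± 0.00723 in IL4_IL13_TNFa. For Fcgr4 to Fcgr2b the ratios were 1.43 ± 0.392, 0.0799 ± 0.0160 and 0.0103 ± 0.00369. With the longest transcript as length the Fcgr1 ratios were 5.16 in Control and 0.127 in IL4_IL13, and the Fcgr4 ratios 0.876, 0.0489 and 0.00633 in the 3 groups, so that in Control the mean ratio of Fcgr4 to Fcgr2b fell below 1. For Fcgr3 to Fcgr2b they were 31.9 ± 7.34, 5.51 ± 0.103 and 1.51 ± 0.311. The Fcgr3 ratio was the most even within IL4_IL13, from 5.35 to 5.62 over 6 libraries. The levels of both genes ranged more widely in that group than this ratio did. The summed activating chains relative to their subunit Fcer1g were at 0.529 ± 0.118 in Control (0.576 ± 0.0330 without Control replicate 1), 0.631 ± 0.0521 in IL4_IL13 and 0.115 ± 0.0197 in IL4_IL13_TNFa. The last group lay below each library of the other 2.

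Neighbouring genes on chromosome 1 did not share 1 direction. Fcgr2b and Fcgr4 are 42.4 kb apart, and Fcgr4 and Fcgr3 21.4 kb. With IL-4 and IL-13 Fcgr2b rose, Fcgr4 fell and Fcgr3 did not pass. With added TNFa these receptor genes were each lower (log2 fold changes -0.61, -3.51 and -2.48), Fcgr4 on few counts. Between Fcgr3 and Fcer1g, a gap of 165 kb, 4 other genes were tested. Sdhc, a respiratory chain subunit, rose in the IL4_IL13 comparison and with added TNFa (log2 fold changes 0.70 and 0.35). Tomm40l also rose in both (0.18 and 0.14), while Pcp4l1 fell in both (-2.26 and -2.81). Cfap126 passed only with added TNFa (-1.27), but it lay near the floor, at a mean of 0.572 CPM over the 18 libraries. That mean is below the 0.595 CPM asked of tested genes, so its change is given as a description. These 4 were named for their position after their values were seen.

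**Figure D4:**
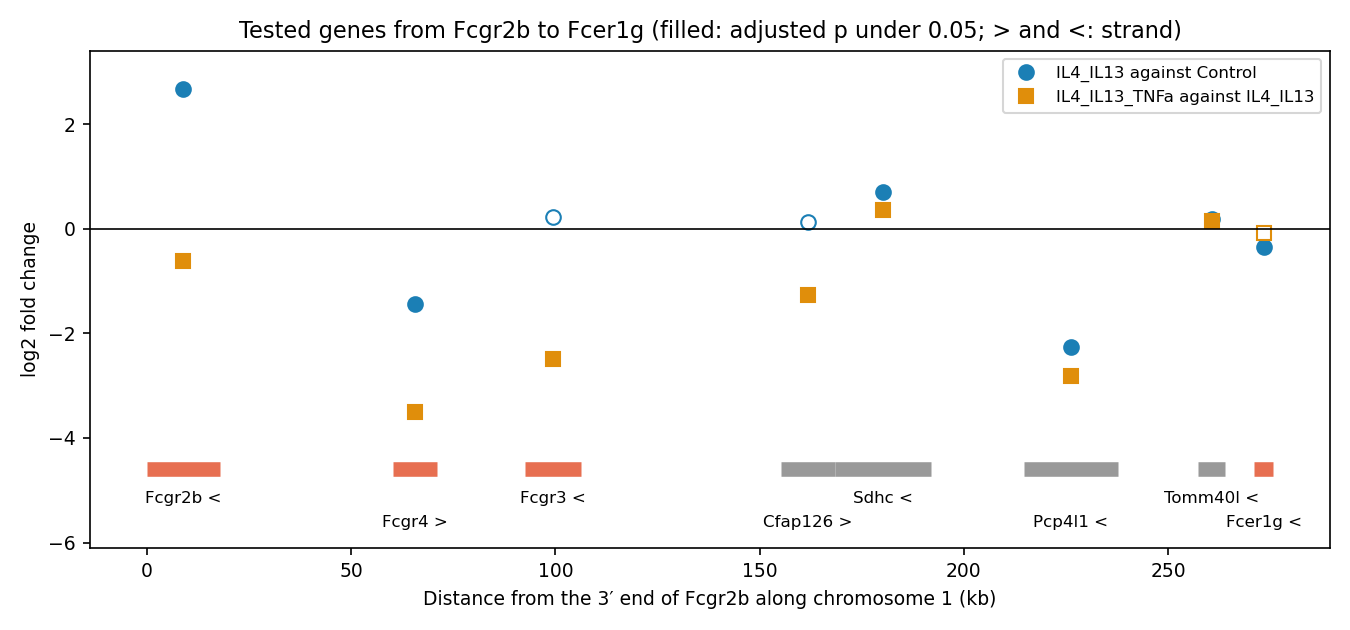
Log2 fold change (vertical axis) of the 8 tested genes from Fcgr2b to Fcer1g against distance along chromosome 1 in kb, for IL4_IL13 against Control (circles) and added TNFa (squares), with gene bodies drawn below. Fcgr2b, at 2.67, is the highest circle, and Fcgr4, at -3.51, the lowest square.

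By the root mean square difference of log2 CPM, each gene centred on its mean over the 18 libraries, the genes most like each member were sought among 9943 genes with a mean of at least 5 CPM. For Fcgr2b they were Nfil3 (0.203), Clec4b1 (0.243) and H2-DMa (0.332), and for Fcgr1 they were Cd93 (0.537), Lyl1 (0.588) and Gpr34 (0.628). For Fcgr4 they were Rnf150 (0.330), Slc26a11 (0.355) and Arhgap19 (0.367). Fcgr3 was closest to Man2a2 (0.270), Kif5c (0.281) and Cnrip1 (0.281), and Fcgrt to Tmem37 (0.322) and Tcp11l2 (0.348). Fcer1g was closest to Ik (0.0779), Wbp2 (0.0834) and Nelfb (0.0834). The 6 members themselves were left out of the search.

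The genes that act with the receptors went several ways. Over all genes tested, 29.3% rose and 29.7% fell with IL-4 and IL-13, and 30.3% rose and 29.3% fell with added TNFa. In the list of 16 kinases and adaptors next to the receptors, 4 rose and 9 fell with IL-4 and IL-13 (median log2 fold change -0.28, against -0.00 over all genes), and 6 rose and 4 fell with added TNFa (median -0.02, against 0.00). Syk, the kinase that binds the phosphorylated gamma chain, was at 421 ± 70.7 CPM in Control and 417 ± 42.0 CPM in IL4_IL13 (edgeR adjusted p = 0.913). With TNFa it rose to 995 ± 71.6 CPM (log2 fold change 1.25 ± 0.10, edgeR adjusted p = 2.77e-09). Among Src-family kinase genes, whose products phosphorylate such motifs, Src rose with TNFa from 2.92 ± 0.698 to 250 ± 8.83 CPM (log2 fold change 6.41) and Fgr from 14.4 ± 1.97 to 109 ± 11.9 CPM (2.93). Fgr had already risen 1.80-fold with IL-4 and IL-13. Lyn, another kinase of that family, named after its values were seen, fell in both comparisons, by 1.64-fold and 1.27-fold.

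On the inhibitory side, 3 of 10 tested phosphatases and adaptors rose and 6 fell with IL-4 and IL-13 (29.3% and 29.7% of all genes). With added TNFa, 4 rose and 4 fell (30.3% and 29.3% of all genes). Inpp5d, the phosphatase recruited by Fcgr2b, fell from 630 ± 13.1 CPM in Control to 315 ± 20.5 CPM in IL4_IL13 and 212 ± 4.58 CPM with TNFa (2.00- and 1.49-fold, edgeR adjusted p = 4.85e-13 and 8.05e-10). Ptpn6, which encodes the tyrosine phosphatase SHP-1, fell 1.82-fold with IL-4 and IL-13 and did not pass with added TNFa (edgeR adjusted p = 0.203). Dok2, an adaptor that dampens tyrosine kinase signals, rose 5.20-fold with IL-4 and IL-13, while Dok3 fell 3.10-fold. With added TNFa, Pirb, an inhibitory receptor that binds MHC class I, rose 3.15-fold and Cd300a fell 3.75-fold. So while Fcgr2b was higher in both cytokine groups than in Control, its phosphatase gene was lower in both.

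Of 18 engulfment genes, 6 rose and 5 fell with IL-4 and IL-13 (median log2 fold change 0.08), near the shares over all genes tested (29.3% and 29.7%). With added TNFa, 10 rose and 3 fell (median 0.24), beside 30.3% and 29.3% of all genes. With library totals the engulfment counts for added TNFa were 6 and 8. Prkcd, a protein kinase C gene, went from 497 ± 86.7 CPM in Control through 1485 ± 195 to 4751 ± 213 CPM with TNFa, which did not overlap. Dock2, an activator of Rac, rose 2.15-fold with IL-4 and IL-13, and Coro1a, an actin-binding protein gene, fell 2.33-fold. With added TNFa, Myo1g and Actr3 rose 1.68- and 1.47-fold.

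The tested genes in the list of other receptors that use the gamma chain shared a direction within each comparison. All 5 tested (of 9 in the list) fell with IL-4 and IL-13 (median log2 fold change -2.32) and all 5 rose with added TNFa (median 2.36). Over all genes tested, 29.7% fell in the first comparison and 30.3% rose in the second. Clec4e, which encodes the mycobacterial glycolipid receptor Mincle, went from 43.2 ± 17.97 CPM in Control to 7.28 ± 5.88 CPM in IL4_IL13 and 322 ± 116 CPM with TNFa. Clec4n, which encodes Dectin-2, went from 11.96 ± 4.38 CPM to 1.75 ± 0.591 and 211 ± 11.5 CPM (log2 fold changes -2.75 and 6.90, edgeR adjusted p = 7.3e-08 and 1.72e-13). Clec4d fell 5.01-fold with IL-4 and IL-13, and Pira2 rose 5.13-fold with added TNFa, though reads of Pira2 and its close relatives may be split. With added TNFa these genes rose, while Fcgr1, Fcgr3 and Fcgr4, which use the same subunit, were lower.

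Of 12 other Fc receptor and Fc receptor-like genes, 4 were tested. Fcrls fell 5.68-fold with added TNFa, from 447 ± 54.5 to 78.7 ± 14.9 CPM, after a log2 fold change of -0.08 with IL-4 and IL-13 that did not pass (edgeR adjusted p = 0.517). Fcrl1 fell 14.3-fold with IL-4 and IL-13, from 16.3 ± 1.14 to 1.13 ± 0.0692 CPM. Trim21, a cytosolic receptor for antibody carried into the cell, fell 1.57-fold with IL-4 and IL-13 and did not pass with added TNFa (edgeR adjusted p = 0.486). Among 3 tested signal subunits, Tyrobp and Cd79b fell with IL-4 and IL-13, and Tyrobp alone with added TNFa. Tyrobp, which encodes the ITAM adaptor DAP12, fell 1.16- and 1.24-fold. Cd79b, named after its values were seen, was near the floor. It was at 1.57 ± 0.582 CPM in Control and 0.725 ± 0.156 CPM in IL4_IL13, which overlapped. Over all genes tested, 29.3% rose and 29.7% fell with IL-4 and IL-13. With added TNFa, 30.3% of all genes rose and 29.3% fell. In the list of FcRn partner and recycling genes, 2 of 5 rose and 1 fell with IL-4 and IL-13, and 3 rose and 1 fell with TNFa, led by Ehd1 at 5.47-fold higher. Ehd1 had fallen 2.27-fold with IL-4 and IL-13, while Rab11fip1 rose 1.48-fold.

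**Figure D5:**
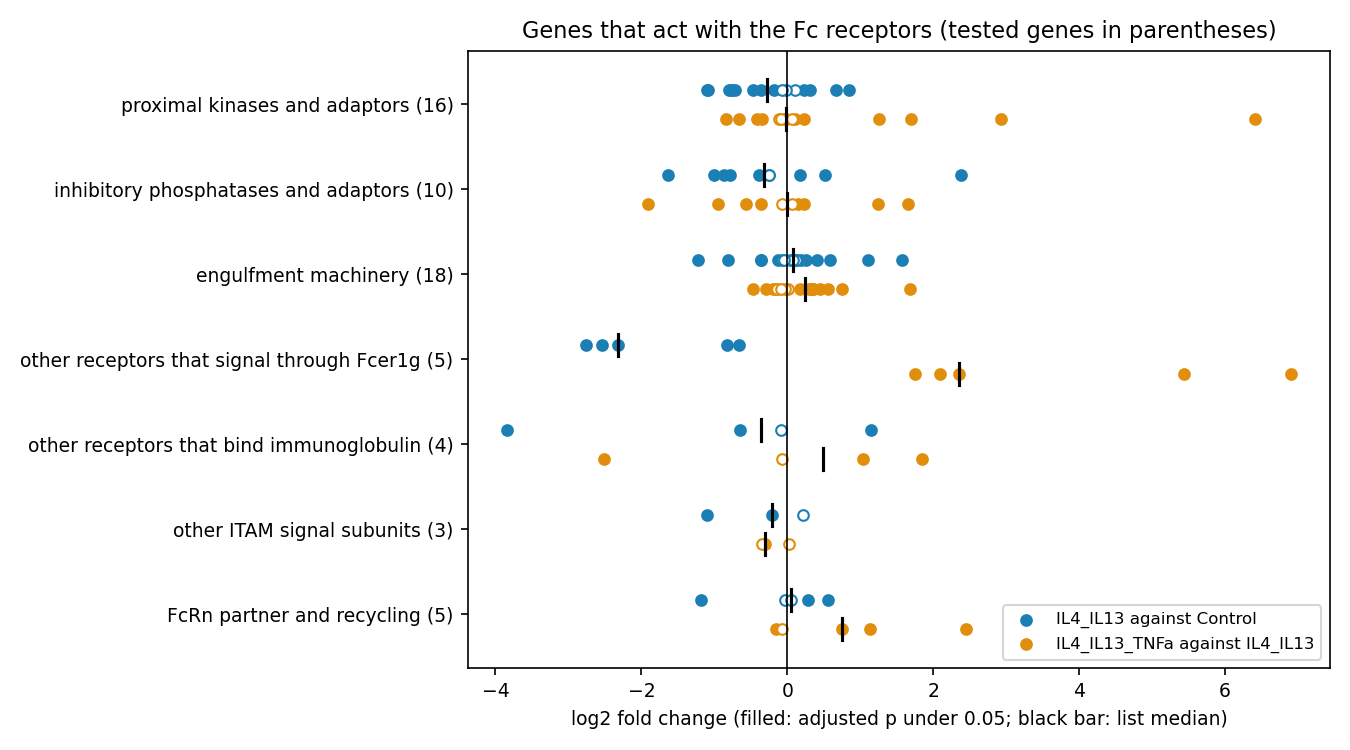
Log2 fold change (horizontal axis) of the tested genes of 7 lists, with IL4_IL13 against Control above and added TNFa below in each pair; filled points passed an adjusted p of 0.05 and black bars are list medians. The 5 tested genes in the list of other gamma chain receptors lie left of zero in the first comparison and right of zero in the second.

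Some other cell types carry these receptors too. B cell markers (7 genes, beside Fcgr2b, which B cells express) summed to 2.31 to 4.02 CPM in Control, 3.73 to 5.82 in IL4_IL13 and 5.94 to 8.70 in IL4_IL13_TNFa, led by Cd79b in Control and Cd22 in the other groups, while Fcer2a was at 0 in Control and IL4_IL13_TNFa. NK cell markers (7 genes) reached at most 0.622 CPM in any library, with Prf1, Gzma and Nkg7 at 0 in each, and the 7 mast cell and basophil markers at most 0.716 CPM, with Fcer1a at 0. The 9 neutrophil markers summed to 0.722 to 2.65, 3.94 to 6.62 and 12.8 to 17.9 CPM in the 3 groups, led by Cxcr2 in both cytokine groups (4.61 and 14.0 CPM, against 0.0369 in Control), with Ly6g at 0 in each library. The 6 dendritic cell markers summed to 1.10 to 3.53, 2.43 to 6.21 and 34.1 to 37.3 CPM, mostly Zbtb46 in the last, and the 5 eosinophil markers to 6.50 to 11.9, 28.1 to 39.2 and 57.8 to 65.1 CPM, led by Siglecf in both cytokine groups (20.6 and 50.7 CPM, against 1.23 in Control), with Epx at 0. The 10 stromal and endothelial markers summed to 19.4 to 556, 52.3 to 500.5 and 52.9 to 314 CPM. The part of these cells in the changes of the 6 genes was not tested.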

How the data were processed

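Poly(A) RNA was sequenced from 18 libraries. The deposited values are whole-number counts of reads per Ensembl gene, not normalized. Per the submitters' processing notes, the tools were FastQC 0.11.5, bcl2fastq 2.20.0.422, RSEM 1.3.0, featureCounts 1.5.1 and STAR (2.5.2, 2.5.2b), with GRCm38. Their roles, the annotation and the strand setting were not given in the sources used, so antisense and overlapping genes are uncertain (those overlapping a member held at most 5 counts).

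Symbols came from GENCODE M21 (48348 of 48794 rows). Promoter sequences are RefSeq's, for 6 of 6 members. Groups came from the titles. Genes were kept by filterByExpr (minimum count 10) and fitted over all 18 libraries in edgeR 4.0.16 (R 4.3.3; TMM, robust quasi-likelihood). Per-kilobase values use the union of exons. The scripts were tested on simulated counts. No 2 libraries of a group were copies (chi-square per degree of freedom at least 2.72 over 45 pairs).

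The alternatives tried were library totals, DESeq2 1.42.0 size factors, other filters, DESeq2, voom of limma 3.58.1, a replicate block, only the libraries compared, libraries left out, and transcript length. Same-numbered libraries deviated together (correlations of 0.128 to 0.671 in 18 pairs), which was taken as pairing. The labels do not say what a shared number marks. The main fit held the group only and left this pairing out, so calls that the replicate block changed are given with both fits.

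Members and lists were chosen with earlier results of these data known. Named list genes are up to 3 per list and comparison by size of change (at least 5 CPM, adjusted p under 0.05) and Tyrobp, B2m, Trim21, Syk, Inpp5d and Ptpn6; like genes are the closest 3 per member. Lilrb4a and Fcar of the lists were not analysed here, and a few genes that these rules name are not reported here.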

Additional observations from a re-analysis of the deposited data

Results flagged for a closer look

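In 8 of 45 groups of 6 libraries examined (member levels, and ratios and shares built from them), 1 library lay farther from the rest than Dixon's 95% critical value allows. About 1 group in 20 is flagged by chance, and the ratios reuse the levels. Control replicate 1 was the lowest control for Fcgr1 (88.6 CPM, others 132.5 to 159), Fcgr4 (5.07 CPM, others 11.4 to 14.3) and Fcgr3 (191 CPM, others 345 to 400.0). It was also lowest for the summed level of the 4 IgG-binding chains (151 CPM per kb, others 266 to 311) and for the summed activating chains relative to Fcer1g (0.296, others 0.553 to 0.632). In IL4_IL13_TNFa, replicate 3 had the highest Fcgr1 level (1.95 CPM, others 0.616 to 1.04) and the highest ratio of Fcgr1 to Fcgr2b (0.0280, others 0.00884 to 0.0155). Control replicate 2 had the highest ratio of Fcgr4 to Fcgr2b (2.201, others 1.10 to 1.402).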

How the results depend on the processing

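Of 486 repeats of the members' 18 tests under other settings, 482 kept direction and side of the threshold, 4 newly passed and none reversed. The 4 were Fcgr3 for IL4_IL13 against Control with the replicate block (0.24), Fcgrt there without Control replicate 1 and without the 3 libraries numbered 1 (-0.42), and Fcer1g for added TNFa with library totals (-0.28). Leaving out 1 library at a time, Fcgrt ranged from -0.55 to -0.23. The block changed no other member's call. The 486 repeats include those of Fcgr1 and Fcgr4 in comparisons with IL4_IL13_TNFa, which are given above as descriptions. They also include fits that left out a library of the group not compared, which could change the result little.

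With library totals, added TNFa gave 2313 genes higher and 6089 lower (3999 and 3857 with TMM). For added TNFa the lists then held 11 kinases lower, 2 inhibitory genes higher, 6 engulfment genes higher and 8 lower, 2 other Fc receptor genes lower, 2 signal subunits lower and 2 FcRn genes lower. Against Control, 3 inhibitory genes were higher and 1 FcRn gene lower. With the replicate block, 2 signal subunits were lower for added TNFa and 1 FcRn gene against Control. The block also gave 7 engulfment genes higher with IL-4 and IL-13 and 5 kinases and adaptors lower with added TNFa.

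With the longest transcript as length, the ratio of Fcgr1 to Fcgr2b was 5.16 in Control and 0.127 in IL4_IL13, that of Fcgr4 to Fcgr2b 0.876, 0.0489 and 0.00633 in the 3 groups, and that of Fcgr3 to Fcgr2b 4.35 in IL4_IL13 and 1.19 in IL4_IL13_TNFa. The Fcgr2b share was 3.24%, 18.1% and 45.8%, the Fcgr3 share 78.2%, 78.7% and 53.6%, the Fcgr1 share 15.8% and 2.30% and the Fcgr4 share 2.73% and 0.884% in Control and IL4_IL13. Their sum was 323, 374 and 97.8 CPM per kb. These shifts follow from the shorter lengths used. The cause of the others was not tested. Depth limits Fcgr4 and Fcgr1 in IL4_IL13_TNFa, at 3 to 8 and 9 to 31 counts per library.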
